A study of Homo sapiens with 4 samples.

Results

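The 10 genes described here handle heme and the iron released from it: the heme oxygenases *HMOX1* and *HMOX2*, the biliverdin reductases *BLVRA* and *BLVRB*, the ferritin chains *FTH1* and *FTL*, the iron exporter *SLC40A1*, the transferrin receptor *TFRC*, the heme transporter *SLC48A1* and the heme synthesis enzyme *ALAS1*. They were listed by name, with no measured value in the rule but with earlier results of these data known. They are 10 of the 57905 genes in the count tables. The cells were U87MG, a human glioblastoma line in long use and labelled wild type, and their RNA was sequenced in 2 untreated control samples and 2 samples given 50 nM chaetocin for 24 h. Chaetocin is a fungal metabolite that inhibits histone lysine methyltransferases and thioredoxin reductase, and it was added in DMSO, while the controls were left untreated. All 4 samples share the line and the medium, and the labels do not say whether samples of a group came from separate cultures, so that the p-values measure the spread between these samples, which may be technical. The question put to the data was whether the rest of heme breakdown, iron storage, iron export and iron uptake followed *HMOX1*.

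Heme oxygenase opens the heme ring and releases iron, carbon monoxide and biliverdin, which biliverdin reductase turns into bilirubin. Ferritin, a shell of heavy (*FTH1*) and light (*FTL*) chains, stores the iron, ferroportin (*SLC40A1*) exports it, and the transferrin receptor brings more in. *HMOX1* is the inducible oxygenase, held down by BACH1 and switched on by NRF2 with small MAF partners, while *HMOX2* is the constitutive one. Heme in turn represses *ALAS1*, the first and rate-limiting enzyme of its own synthesis. Part of iron handling is set after transcription: when iron is scarce, iron regulatory proteins bind iron-responsive elements, small hairpins in the RNA, and thereby block ferritin and ferroportin translation and protect the *TFRC* message.

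The hairpins found in these genes are printed because they separate the genes that store or export iron from the gene that takes it up. GENCODE v29 transcripts (GRCh38) were searched for the loop CAGTGN (capitals below) preceded by 5 bases that pair with the 5 bases after the loop, G-T pairs allowed, and by a C just before those 5. *FTL* and *SLC40A1* had a match in exon 1 within the 5′ UTR, at chr19:48965335-48965364 on the plus strand and chr2:189580660-189580689 on the minus strand. *TFRC* had 4 matches in exon 19 within the 3′ UTR, on the minus strand at chr3:196050978-196051007, chr3:196050574-196050603, chr3:196050509-196050538 and chr3:196050462-196050491, given below in that order, which is the order along the transcript.
FTL 5′ UTR: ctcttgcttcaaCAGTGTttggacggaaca
SLC40A1 5′ UTR: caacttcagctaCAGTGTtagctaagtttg
TFRC 3′ UTR a: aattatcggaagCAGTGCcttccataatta
TFRC 3′ UTR b: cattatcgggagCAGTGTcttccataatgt
TFRC 3′ UTR c: ctgtatcggagaCAGTGAtctccatatgtt
TFRC 3′ UTR d: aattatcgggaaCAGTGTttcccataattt
All sequences run 5′ to 3′ along the transcript, written with T. Among 19702 protein-coding genes, 26 (0.132%) had such a match in a 5′ UTR and 104 (0.528%) in a 3′ UTR. *HMOX1* and *FTH1* were among the genes searched, but sites in them are not reported here. A match is a string of letters, not evidence of binding. The RNA counts below measure message level and say nothing about translation.

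Sequencing depth lay between 21241984 and 32590479 counts per sample. Counts were normalized by the TMM method and are given as normalized CPM, that is counts scaled to the same effective library size in each sample. At these depths 3 counts correspond to 0.0844 to 0.138 CPM, a floor that covers counting error only, since PCR copies are not independent molecules. After genes with low counts had been removed, edgeR's quasi-likelihood test was applied to 16416 genes, and a gene was called at a Benjamini-Hochberg adjusted p-value under 0.05. Of all genes tested, 1.11% were called higher and 0.743% lower in chaetocin-treated cells. Both chaetocin samples lay above both controls for 26.8% of genes and below both for 26%, and the median log2 fold change of all genes was 0.01. *CDKN2A* and *CDKN2B*, which are deleted in U87MG, had 0 reads in all 4 samples. The astroglial markers *GFAP* (10 to 25 reads) and *AQP4* (0 reads in all 4 samples) were near or at 0, while *VIM* and *CD44* had between 28332 and 71275 reads.

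Of the 10 genes, 9 passed the filter on low counts and 2 were called higher: *HMOX1*, which rose about 8.3-fold, and *ALAS1*, which rose about 2.0-fold. None was called lower. At an unadjusted p under 0.05 in edgeR's quasi-likelihood test, 5 of the 9 were higher, both called genes included, beside 10.9% of all genes, and 1 (*TFRC*) was lower, beside 9.43% of all genes. Both chaetocin samples lay above both controls for 5 of the 9 (*HMOX1*, *ALAS1*, *SLC48A1*, *FTH1* and *FTL*), beside 26.8% of all genes. They lay below both for 3 (*TFRC*, *BLVRA* and *BLVRB*), beside 26% of all genes, whereas *HMOX2* overlapped. The 95% intervals of the 8 other genes tested all ended below the lower end of the *HMOX1* interval, so none of them followed *HMOX1* in size.

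**Figure D1:**
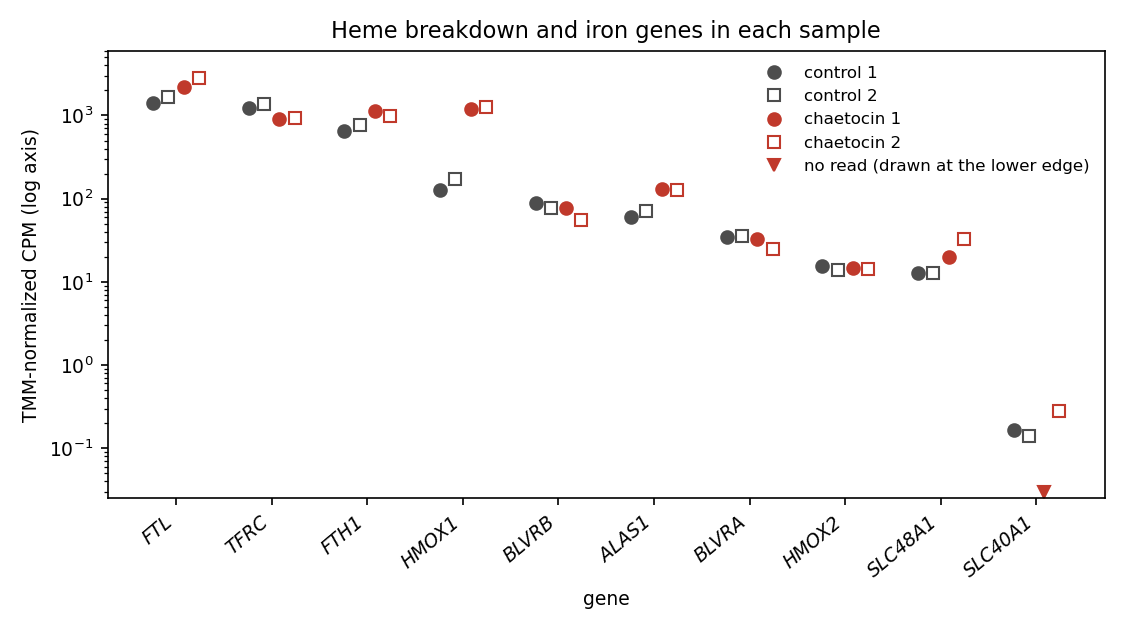
Normalized CPM (log axis) of the 10 genes in each of the 4 samples, with circles for sample 1 and squares for sample 2 of each group, control in grey and chaetocin in red; the triangle marks 0 reads. *HMOX1* is the gene whose chaetocin samples (1198 and 1276 CPM) stand farthest from its controls (127 and 172 CPM), and *SLC40A1* lies near the level of a few reads.

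*HMOX1* (ENSG00000100292; chromosome 22, 35380361 to 35394214, plus strand) encodes the inducible heme oxygenase. It had 3094 and 4934 reads in the controls and 26060 and 45319 reads in the chaetocin samples. Normalized, this was 127 and 172 CPM against 1198 and 1276 CPM, or 149 ± 31.8 against 1237 ± 55.2 (mean ± SD, n = 2 each). Both chaetocin samples were thus far above both controls, with no overlap. The log2 fold change was 3.05 (SE 0.22, 95% interval 2.56 to 3.55, which is 5.88- to 11.7-fold; adjusted p = 0.00358, edgeR's quasi-likelihood test). By p-value *HMOX1* ranked 2 among the 16416 genes, and by fold change it ranked 118. It stayed called in all 6 alternative fits over all samples and in each of the 4 fits that left a sample out.

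*HMOX2* (ENSG00000103415; chromosome 16, 4474690 to 4510347, plus strand), the constitutive oxygenase, showed 15.7 and 14.0 CPM in the controls and 14.8 and 14.1 CPM in the chaetocin samples. The groups overlapped, and the log2 fold change of -0.044 (SE 0.18, adjusted p = 0.923, edgeR's quasi-likelihood test) had a 95% interval of 0.727- to 1.29-fold. With upper-quartile scaling its sign turned, to 0.032. Of its 3793 exon bases, 228 also lie in exons of *NMRAL1* on the opposite strand, and whether the counting used strand is not stated in the sources used here. Per kilobase of exon, *HMOX1* exceeded *HMOX2* 12.7 and 19.3 times in the controls and 128 and 143 times in the chaetocin samples. The length counts all annotated exons of a gene and can exceed that of the expressed transcript. Levels compared between genes on this scale are therefore approximate. On this scale *HMOX1* made up 92.7% and 95.1% of the summed oxygenase level without chaetocin and 99.2% and 99.3% with it.

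Neither biliverdin reductase was called. *BLVRA* (ENSG00000106605; chromosome 7, 43758680 to 43807342, plus strand), which reduces the biliverdin made from heme, showed 34.7 and 35.7 CPM in the controls and 33.2 and 25.0 CPM in the chaetocin samples. Both chaetocin values lay below both controls, chaetocin 1 by little. The log2 fold change was -0.28 (SE 0.18, 95% interval -0.69 to 0.13) and was not called (adjusted p = 0.426, edgeR's quasi-likelihood test).

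*BLVRB* (ENSG00000090013; chromosome 19, 40447765 to 40465840, minus strand), a flavin reductase that also acts on biliverdin, showed 89.5 and 76.7 CPM in the controls against 76.4 and 55.8 CPM. Chaetocin 1 was just under control 2, and chaetocin 2 was the lowest of the 4. Its log2 fold change was -0.33 (SE 0.18, 95% interval -0.76 to 0.09, adjusted p = 0.355, edgeR's quasi-likelihood test). For both reductases the lower mean came mostly from chaetocin 2: without chaetocin 1 the log2 fold changes were -0.49 and -0.57 and both were called (adjusted p = 0.0355 and 0.0136), in a fit that called 1673 genes lower against 122 with all samples, and without chaetocin 2 they were -0.092 and -0.13. The summed level of both reductases per kilobase of exon was 72.1 and 65.0 CPM in the controls and 63.4 and 46.8 CPM in the chaetocin samples, while that of both oxygenases went from 56.9 and 75.1 CPM to 502 and 534 CPM. The ratio of *BLVRB* to *BLVRA* per kilobase stayed within 2.32 to 2.78 in all 4 samples.

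The ferritin chains were among the most abundant of the 10 messages. *FTH1* (ENSG00000167996; chromosome 11, 61959718 to 61967660, minus strand), the heavy chain that carries the ferroxidase site, had 648 and 761 CPM in the controls and 1118 and 996 CPM in the chaetocin samples. Both chaetocin samples were higher, and the groups did not overlap. The log2 fold change was 0.58 (SE 0.19, 1.12- to 2.02-fold), with an unadjusted p of 0.0133 and an adjusted p of 0.136 in edgeR's quasi-likelihood test.

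*FTL* (ENSG00000087086; chromosome 19, 48965301 to 48966878, plus strand), the light chain that helps the iron core form, had 1429 and 1673 CPM in the controls and 2182 and 2814 CPM in the chaetocin samples. Its groups did not overlap either, and chaetocin 2 was the highest. The log2 fold change of 0.69 (SE 0.22, 95% interval 0.19 to 1.19, adjusted p = 0.135, edgeR's quasi-likelihood test) was also not called. DESeq2, the tool named in the study's methods, called both chains, with adjusted p = 0.0392 for *FTH1* and 0.0186 for *FTL*. The chains were also called in edgeR with no filter on low counts (adjusted p = 0.0474 and 0.0129) and with the replicate block (0.0484 and 0.0359). The log2 fold changes in these fits ranged from 0.56 to 0.59 for *FTH1* and from 0.67 to 0.68 for *FTL*. Neither chain was called in edgeR with RLE scaling, with upper-quartile scaling (adjusted p = 0.0940 and 0.100) or when each sample needed at least 10 counts. Without control 1 the log2 fold changes were 0.46 for *FTH1* and 0.56 for *FTL*.

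Ferritin has many processed pseudogenes, and reads can be shared with them. The 25 annotated *FTH1* pseudogenes in the tables held 233 and 334 reads in the controls and 345 and 531 in the chaetocin samples, equal to 1.42% to 1.53% of the reads of the parent in each sample. The 16 *FTL* pseudogenes held between 7 and 22 reads. Adding these reads to the parents left the log2 fold changes at 0.58 and 0.69. How reads that match several places were counted is not given in the sources used here. Opposite *FTH1*, *BEST1* covers 1267 of its 2030 exon bases, and *BEST1* itself had 196 to 309 reads.

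Per kilobase of exon the ratio of heavy to light chain was 0.196 and 0.197 in the controls and 0.222 and 0.153 in the chaetocin samples, above the controls in chaetocin 1 and below them in chaetocin 2. The summed ferritin level per kilobase was 1947 and 2281 CPM in the controls and 3036 and 3695 CPM in the chaetocin samples. *HMOX1* reached 0.165 and 0.190 of the *FTH1* level per kilobase in the controls and 0.904 and 1.08 of it in the chaetocin samples.

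*SLC40A1* (ENSG00000138449; chromosome 2, 189560579 to 189583758, minus strand) encodes ferroportin, the only known iron exporter of human cells. It had 4 and 4 reads in the controls and 0 and 10 reads in the chaetocin samples, or 0.164, 0.139, 0 and 0.281 CPM. The chaetocin samples lay on both sides of the controls, and the 0 allows up to 0.138 CPM. It was removed by the filter and not tested, and a difference in export message was not detectable at this depth.

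*TFRC* (ENSG00000072274; chromosome 3, 196027183 to 196082189, minus strand), the receptor that takes up transferrin-bound iron and carries the 3′ UTR hairpins printed above, had 1236 and 1387 CPM in the controls and 897 and 925 CPM in the chaetocin samples. Both chaetocin samples were lower, with a gap to the controls wider than the spread within either group. The log2 fold change was -0.52 (SE 0.18, 0.520- to 0.929-fold), with an unadjusted p of 0.0198 and an adjusted p of 0.161 in edgeR's quasi-likelihood test. DESeq2 called it lower (-0.54, adjusted p = 0.0405).

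The messages of ferritin and *TFRC* thus lay on opposite sides of the controls, without a call in the filtered, unblocked edgeR fit. Per kilobase of exon *FTH1* exceeded *TFRC* 2.04 and 2.13 times in the controls and 4.84 and 4.18 times in the chaetocin samples. *FTL* exceeded *TFRC* 10.4 and 10.8 times in the controls and 21.8 and 27.3 times in the chaetocin samples. These ratios within a sample do not depend on the scaling of the library, and neither pair of groups overlapped. With 2 samples against 2, an exact permutation test cannot go below p = 0.33 (two-sided), so no test of a ratio is given.

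*SLC48A1* (ENSG00000211584; chromosome 12, 47753916 to 47782753, plus strand) encodes HRG1, which carries heme out of endosomes and lysosomes into the cytosol. It had 12.7 and 12.6 CPM in the controls and 20.0 and 32.9 CPM in the chaetocin samples. The controls were nearly equal, both chaetocin samples were higher, and chaetocin 2 was well above chaetocin 1. The log2 fold change was 1.07 (SE 0.24, 1.42- to 3.08-fold) and missed the threshold (adjusted p = 0.0655, edgeR's quasi-likelihood test), whereas DESeq2 called it (adjusted p = 0.00625). The value rested in good part on chaetocin 2: it was 0.65 without chaetocin 2 and 1.38 without chaetocin 1. Exons of *RAPGEF3* and *HDAC7* on the opposite strand share 83 and 32 of its 4921 exon bases.

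*ALAS1* (ENSG00000023330; chromosome 3, 52198086 to 52214327, plus strand), the housekeeping aminolevulinate synthase that starts heme synthesis, had 59.7 and 70.2 CPM in the controls and 132 and 128 CPM in the chaetocin samples. The chaetocin samples were nearly equal and stood well above both controls. It rose by 1.00 on the log2 scale (SE 0.15, 1.58- to 2.54-fold; adjusted p = 0.0302, edgeR's quasi-likelihood test). Without control 1 the log2 fold change was 0.88 and the call was lost (adjusted p = 0.133). *ALAS2*, the erythroid form of the enzyme, had 0 reads in all 4 samples. The message for the enzyme that starts heme synthesis and the message for the enzyme that opens heme were thus both higher in chaetocin-treated cells, and the ratio of *HMOX1* to *ALAS1* per kilobase of exon still went from 2.24 and 2.58 to 9.57 and 10.5.

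**Figure D2:**
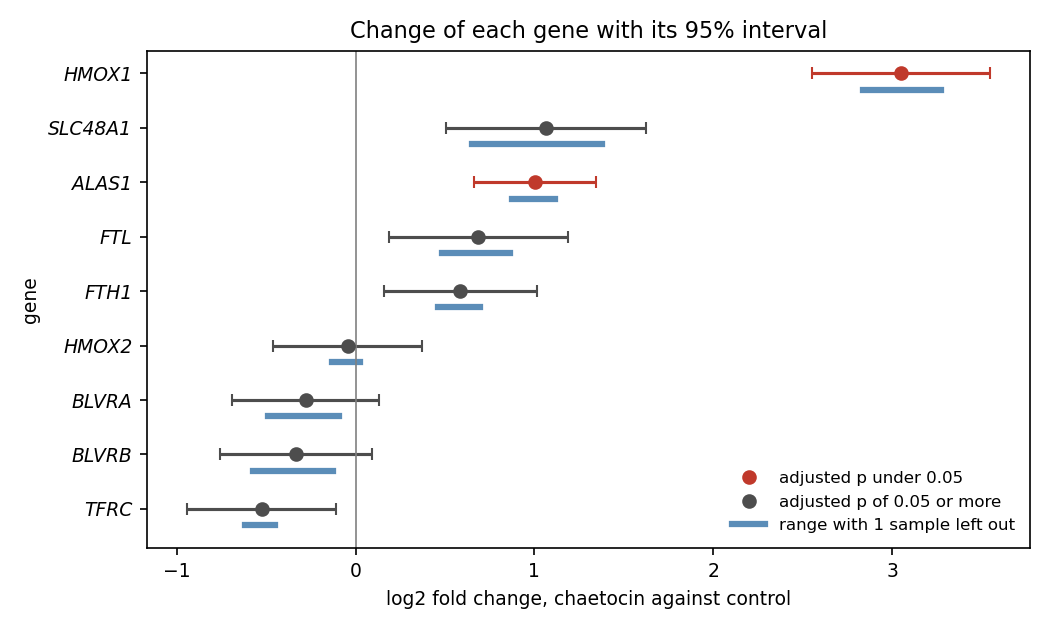
Log2 fold change of the 9 genes tested, chaetocin against control, with 95% intervals from edgeR's quasi-likelihood fit (n = 2 per group); red marks an adjusted p under 0.05, and blue bars span the values obtained with 1 sample left out. The *HMOX1* interval begins at 2.56, above the upper ends of all the others.

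Set side by side per kilobase of exon, *HMOX1* moved up the order of levels, an order that depends on the exon lengths used. In the controls it ran *FTL* (1628 and 1906 CPM), *FTH1* (319 and 375), *TFRC* (157 and 176), then *HMOX1* (52.7 and 71.4) and *BLVRB* (53.0 and 45.4), which overlapped. In the chaetocin samples *HMOX1* (498 and 530 CPM per kilobase) overlapped *FTH1* (551 and 490) and stood above *TFRC* (114 and 117). *ALAS1* (23.5 and 27.7 in the controls, 52.0 and 50.6 with chaetocin) passed *BLVRB* (45.2 and 33.0 with chaetocin), and *SLC48A1* (2.59 and 2.56, then 4.06 and 6.69) passed *HMOX2* (4.14 and 3.70, then 3.89 and 3.71). *FTL* was the most abundant in all 4 samples, at 2485 and 3205 CPM per kilobase with chaetocin. *HMOX1* was 0.336 and 0.406 of the *TFRC* level per kilobase in the controls and 4.38 and 4.52 times that level with chaetocin.

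Against each of the other genes tested, the ratio of *HMOX1* per kilobase was above the control range in chaetocin 1 and in chaetocin 2. Against *SLC48A1* the ratio was 20.4 and 27.9 in the controls and 123 and 79.3 with chaetocin. Against *BLVRA* it was 2.77 and 3.64 and then 27.3 and 38.6, and against *BLVRB* 0.994 and 1.57 and then 11.0 and 16.1.

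**Figure D3:**
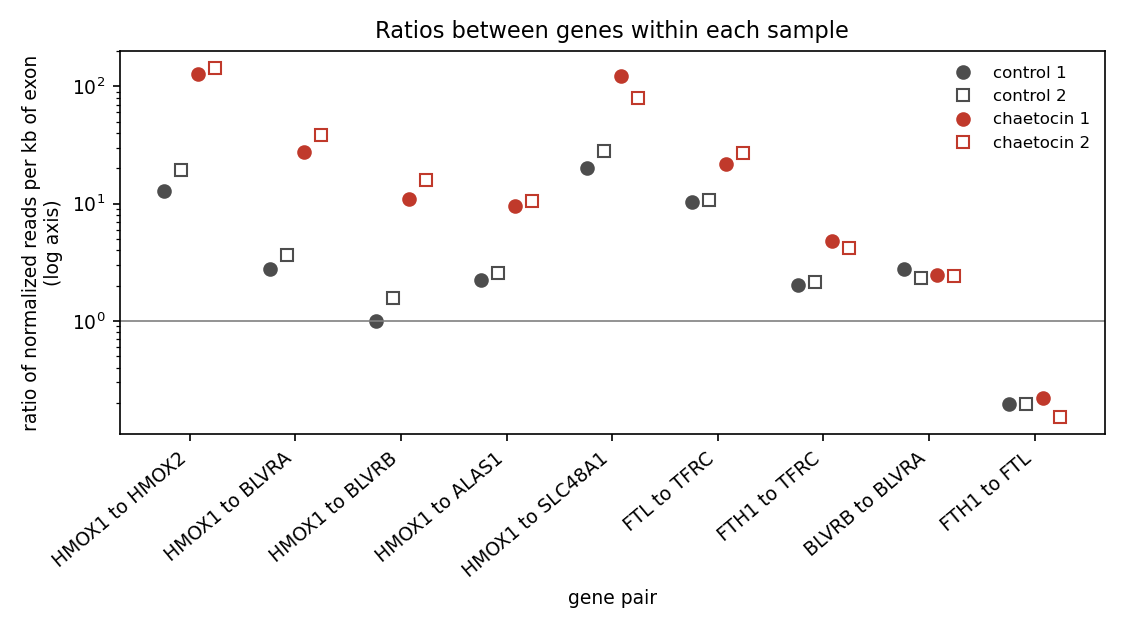
Ratio of normalized reads per kilobase of exon between pairs of the genes within each sample (log axis, grey line at equal levels), with circles for sample 1 and squares for sample 2, control in grey and chaetocin in red. Ratios with *HMOX1* on top and of ferritin to *TFRC* are higher in both chaetocin samples, and *BLVRB* to *BLVRA* stays between 2.32 and 2.78.

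Other genes of heme and iron handling were taken from 6 lists without the 10 genes above. Of 76 genes listed, 64 were tested, 1 was called higher and 2 were called lower, beside 1.11% and 0.743% of all genes. Their median log2 fold change was -0.07, with 28 above 0 and 36 below 0, while that of the 9 genes above was 0.58.

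Heme synthesis beyond *ALAS1* held no call. None of the 7 other enzymes tested passed the threshold, and their median log2 fold change was -0.15. The highest log2 fold change among them was 0.22, for *FECH*, ferrochelatase, which inserts the iron. Among 13 heme transport and binding genes beside *SLC48A1*, none was called either. *FLVCR2*, which encodes a membrane transporter, had 353, 432, 152 and 356 reads and a log2 fold change of -0.79 (adjusted p = 0.109, edgeR's quasi-likelihood test). It was called lower with no filter (adjusted p = 0.0155), with the replicate block (0.0093) and without chaetocin 2 (-1.09, adjusted p = 0.00817), but not in DESeq2 (0.0704).

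Iron uptake and export held both genes that were called lower, of 9 tested with a median of -0.24. *STEAP3*, the endosomal reductase that prepares transferrin-delivered iron for transport, had 107 and 88.6 CPM in the controls and 51.0 and 33.7 CPM in the chaetocin samples. It fell by 1.21 on the log2 scale (SE 0.21, adjusted p = 0.0382, edgeR's quasi-likelihood test). *SLC39A14*, a carrier of iron, zinc and manganese that is not bound to transferrin, had 550 and 503 CPM against 305 and 273 CPM and fell by 0.86 (SE 0.17, adjusted p = 0.0458). With *TFRC*, the list had 10 genes tested, of which 6 were lower in both chaetocin samples (26% of all genes were) and 4 overlapped. The call of *SLC39A14* was lost with upper-quartile scaling (adjusted p = 0.0523), when each sample needed at least 10 counts (0.0562), without control 1 (0.187) and without control 2 (0.114).

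In iron storage and sensing, none of 5 genes tested beside ferritin was called, and their median was -0.32. *ACO1*, which encodes iron regulatory protein 1, stood at -0.38 (adjusted p = 0.195, edgeR's quasi-likelihood test). *IREB2*, which encodes iron regulatory protein 2, stood at -0.34. None of 22 iron-sulfur cluster assembly genes tested was called, with a median of 0.06. The lowest p there was that of *MMS19*, a factor that delivers clusters to DNA-handling enzymes, at -0.60 (adjusted p = 0.0672). *MMS19* was called lower in DESeq2 (adjusted p = 0.0195), with no filter (0.0114), with the replicate block (0.00473), without chaetocin 1 (0.00947) and without chaetocin 2 (0.0114).

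Of the 8 regulators of *HMOX1* transcription, all tested, 1 was called. *MAFG*, a small MAF partner of both NRF2 and BACH1, had 77.1 and 97.4 CPM in the controls and 234 and 253 CPM in the chaetocin samples, and rose by 1.48 (SE 0.17, adjusted p = 0.0173, edgeR's quasi-likelihood test). The message of NRF2 itself, *NFE2L2*, stood at -0.32, that of its inhibitor *KEAP1* at 0.39 and that of the repressor *BACH1* at -0.32, none of them called (adjusted p = 0.247, 0.204 and 0.269). *HIF1A*, the hypoxia-inducible factor subunit, and *NFE2L1*, a relative of NRF2, were lower in both chaetocin samples, at -0.81 and -0.68, and were not called either (adjusted p = 0.0872 and 0.126). The core of the antioxidant response element bound by NRF2 with small MAF proteins, TGACNNNGC, was searched on both strands in 300 bases of promoter (250 before and 50 after the start, RefSeq, GRCh38.p14). It was found in 4687 of 35116 promoters (13.3%) and in 0 of the 8 of these genes that have a window in that table, which leaves out *HMOX1* and *FTH1*. This says only that those letters are not in these short windows.

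By Euclidean distance between the 4 log2 CPM values, each centred on its mean, the genes outside the lists nearest to *HMOX1* among 16300 were *PLEKHA7* (distance 0.274), *MAPK13* (0.276), *INPP5D* (0.284), *LINC01844* (0.297) and *AC133552.1* (0.322). All 5 were sparse: *PLEKHA7* had 1, 2, 9 and 18 reads and *INPP5D* had 2, 4, 21 and 37. No abundant gene was among them, so the likeness rests on a few reads per control.

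Markers of other cells that handle heme were also counted. Of 10 macrophage markers, 6 were tested and 3 were called higher, beside 1.11% of all genes. *CD163*, the scavenger receptor for hemoglobin bound to haptoglobin, had 8, 12, 53 and 109 reads. *ITGAM* had 0, 1, 24 and 29 and *PTPRC* 0, 1, 15 and 27 (adjusted p of the 3 = 0.0279, 0.0341 and 0.0412, edgeR's quasi-likelihood test). The summed level of the list was 28.0, 23.0, 37.8 and 21.4 CPM, mostly *CSF1R*, which had 538 to 712 reads. Without *CSF1R* it was 0.820 and 1.01 CPM in the controls and 5.06 and 6.22 CPM in the chaetocin samples, beside *HMOX1* at 1198 and 1276 CPM. Of the 6 tested, 5 were higher in both chaetocin samples, beside 26.8% of all genes. The other 2 of these 5 were *CD14* (7, 11, 10 and 41 reads) and *CD68* (5, 4, 8 and 12), and *CSF1R* overlapped. *TYROBP* and *AIF1* had 0 reads in all samples, *SPI1* had 1 read in 1 sample and *MARCO* had 2 reads in 1 sample. The 11 erythroid markers summed to between 0.557 and 1.24 CPM, with *HBA1*, *HBA2*, *HBB*, *HBG1*, *SLC4A1* and *KLF1* at 0 in every sample. The 10 astroglial and glioma markers summed to 5901 and 5211 CPM in the controls and 3434 and 2199 CPM in the chaetocin samples. All 7 that were tested were lower in both chaetocin samples, beside 26% of all genes, and 1 was called lower, beside 0.743%. Their part in the results above was not tested, and in bulk RNA fewer cells of a type and less RNA per cell cannot be told apart.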

How the data were processed

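Polyadenylated RNA of 4 U87MG samples was sequenced, and the authors deposited 1 table of raw read counts per gene and sample, without normalization. The submitters' processing notes name cutadapt, TopHat, TopHat2, SAMtools and GRCh37. The counting tool is not given in the sources used here. Groups and replicate numbers came from the labels. Symbols, positions and exon lengths are those of GENCODE v29 (GRCh38), which held 52338 of the 57905 identifiers. *NCOA4* and *MRC1* matched none.

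Counts were tested with edgeR 4.0.16 in R 4.3.3 (filterByExpr with a minimum count of 10, TMM factors between 0.942 and 1.09, robust quasi-likelihood fit, no block), and p-values were adjusted over all 16416 genes tested. The biological coefficient of variation was 16.8%. Levels per kilobase are normalized CPM divided by the length of all annotated exons of the gene. For *TFRC* this is 7887 bases, while the transcript searched for its hairpins has 5111. Alternatives were RLE and upper-quartile scaling, no filter, at least 10 counts in every sample, DESeq2 1.42.0, a replicate block, each sample left out and, for ferritin, pseudogene reads added. The script was tested on simulated data.

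The genes and lists were chosen with earlier results of these data known. Named beside the 10 genes were at most 4 called genes of each list, or the gene with the lowest p, and the 5 genes nearest to *HMOX1*; some genes that the rule or the lists gave are not reported here. *IREB2*, *FECH*, *NFE2L2*, *KEAP1*, *BACH1*, *HIF1A* and *NFE2L1*, and the single markers, were named for their roles after their values were seen. Protein sequences were not used here.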

Additional observations from a re-analysis of the deposited data

How the results depend on the processing

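*HMOX1* stayed called in all 6 alternatives over 4 samples (log2 fold change 3.03 to 3.13) and with each sample left out (2.83 to 3.28). Over all genes, 182 were called higher and 122 lower, against 177 and 121 with RLE scaling and 246 and 88 with upper-quartile scaling. These counts were 787 and 759 with no filter, 114 and 80 when each sample needed at least 10 counts, 385 and 481 in DESeq2, 1036 and 1053 with the replicate block, and 215 to 1332 and 97 to 1673 with 1 sample left out, the highest without chaetocin 1 (712 and 940 without chaetocin 2). A group left with 1 sample is assumed to vary like the other. Of the 10 genes, 2 were called higher in the main test and 5 with no filter, in DESeq2 and with the replicate block, and 1 to 5 with 1 sample left out (1 without control 1, 4 without chaetocin 2, 5 without chaetocin 1). None was called lower, against 1 in DESeq2 and 0 to 2 with 1 sample left out (2 without chaetocin 1).

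*FTH1*, *FTL* and *SLC48A1*, which missed the threshold, were called with no filter, in DESeq2 and with the replicate block: *FTH1* at 0.56, 0.57 and 0.59, *FTL* at 0.67, 0.67 and 0.68, and *SLC48A1* at 1.05, 1.05 and 1.03. *TFRC* was called in DESeq2 at -0.54. With 1 sample left out, *FTH1* ranged from 0.46 to 0.70, *FTL* from 0.49 to 0.86, *SLC48A1* from 0.65 to 1.38, *ALAS1* from 0.88 to 1.11, *BLVRA* from -0.49 to -0.092 and *BLVRB* from -0.57 to -0.13. *HMOX2* turned to 0.032 with upper-quartile scaling and ranged from -0.13 to 0.026 with 1 sample left out. Upper-quartile scaling moved the median of all genes by 0.08 on the log2 scale.

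Of the other heme and iron genes, 1 was called higher, and 1 to 6 with 1 sample left out (6 without chaetocin 1). Lower were 2, against 1 with upper-quartile scaling, 6 with no filter, 1 when each sample needed at least 10 counts, 5 in DESeq2, 7 with the replicate block and 1 to 10 with 1 sample left out (10 without chaetocin 1, 7 without chaetocin 2). For the 12 other genes chosen by the naming rule, 89 of 109 values kept their side of the threshold, 13 passed it and 7 lost it, and 3 values in DESeq2 had no adjusted p and were not counted. A gene that the filter of a fit removed gave no value in that fit. The cause of the differences between fits was not tested. What the replicate numbers stand for is not stated in the labels. The difference between samples 1 and 2 correlated between groups across genes with r = 0.191 over 2 pairs. This value cannot show whether equal numbers mark a shared batch. With 2 samples per group, intervals are wide, and levels near 3 counts, as for *SLC40A1*, cannot be compared.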
